A study of Mus musculus with 4 samples.

Results

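Gene expression in the thalamus was compared with that in the caudoputamen (CP), the dorsal part of the striatum, in the 5 control mice of a study of chronically activated dopamine neurons. The data were region averages from Visium arrays, on which barcoded discs of 55 µm capture RNA from a tissue section and transcripts are counted by unique molecular identifiers (UMIs). The 5 thalamus columns of the midbrain arrays and the 5 CP columns of the striatal arrays were joined by gene and paired by mouse, which takes 10 of the 47 region columns. All 5 mice were males of 3 to 4 months, homozygous for the allele that the labels call DATiCre and the paper DAT IRES cre, in which the dopamine transporter gene drives Cre, and were housed singly with a running wheel. The 3 GqVeh mice (802, 784 and 785) had received a Cre-dependent AAV for hM3Dq-mCherry, a receptor that CNO activates, on both sides of the midbrain, and drank 2% sucrose for 1 week. The 2 CNO alone mice (C2W2 and C1W7) were not injected and drank 300 mg/L CNO in 2% sucrose for 1 week. The groups shared the Cre allele, the sucrose and the wheel, so no untouched wild type mouse is among them.

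The study used the thalamus as a reference region of the midbrain sections, and the question here is which genes set it apart from the CP of the same animals. Thalamus discs had been picked by position and by Prkcd, Ptpn3 and Synpo2, and CP discs by position and by Ppp1r1b. Discs high in Gfap, Aldh1l1, Aif1 or P2ry12 had been left out. The values of these genes therefore describe how discs were chosen and are not findings. Each region was captured on arrays of its own, so that region and array cannot be told apart in any difference between them. A disc covers several cells, and in such averages fewer cells of a type and less RNA per cell cannot be told apart.

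The thalamus columns rested on 8 to 29 discs and 80837 to 296950 UMIs per mouse, and the CP columns on 455 to 560 discs and 4544683 to 7977003 UMIs. Levels are given as UMIs per 10000 UMIs of the column, in the order of mice 802, 784, 785, C2W2 and C1W7. A count of 0 over the 5 thalamus columns together allows up to 0.0286 UMIs per 10000 (3 UMIs of 1047246, counting error only). The median gene varied more between mice in the thalamus (SD of 0.259 on the log2 scale) than in the CP (0.0918). The thalamus column of CNO alone mouse C2W2, with 8 discs and the lowest total, stood apart from the others. Across the genes tested, which are not independent replicates, its correlation with the other 4 thalamus columns was 0.851 to 0.877, against 0.894 to 0.953 among those 4. Calls that turn on this mouse are given with and without it.

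The thalamus relays sensory, motor and associative signals to the cerebral cortex and also projects to the striatum. Its relay neurons release glutamate, load their vesicles with the transporter encoded by Slc17a6, and fire in bursts through T-type calcium channels. The rodent relay nuclei hold few GABA neurons of their own. The CP is built the other way round: most of its neurons are GABAergic spiny projection neurons, which receive that thalamic glutamate together with cortical glutamate and midbrain dopamine. Direct-pathway neurons carry the D1 receptor (Drd1), substance P (Tac1) and dynorphin (Pdyn), and indirect-pathway neurons carry the D2 receptor (Drd2), the adenosine receptor (Adora2a) and enkephalin (Penk).

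Of 6403 genes with a mean of at least 0.25 UMIs per 10000 over the 10 columns, 2758 (43.1%) differed at an adjusted p under 0.05 in limma on the difference per mouse, and such genes are referred to as called. In the thalamus 1568 (24.5%) were higher and 1190 (18.6%) lower. A log2 difference of at least 1 was reached by 224 called genes that were higher (3.5%) and 231 that were lower (3.61%). The 5 thalamus values did not overlap the 5 CP values for 1854 genes (29%), 1080 higher (16.9%) and 774 lower (12.1%). Of the genes tested, 727 passed the filter through the thalamus alone (mean under 0.25 in the CP) and 427 through the CP alone. Such a gene had to differ in that direction, so the counts of lists that hold many of them describe the filter as well. The median difference over all genes was 0.04. The split of calls moved with the scaling, to 1300 higher and 1581 lower with TMM factors and to 1317 and 1528 on the values as deposited. A gene with a small difference can therefore change its call with the scaling, and the text turns on larger ones.

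**Figure D1:**
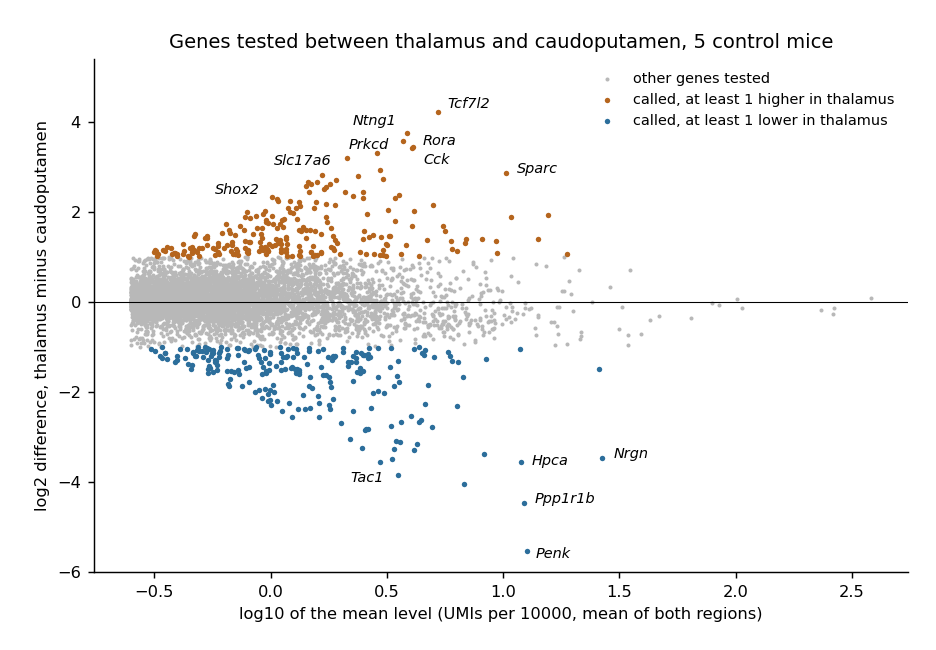
Log2 difference between thalamus and caudoputamen (mean of 5 mice) against the log10 mean level of both regions, 1 point per gene tested. Orange points are the 224 called genes at least 1 higher in the thalamus and blue points the 231 at least 1 lower. Tcf7l2 has the highest difference (4.22) and Penk the lowest (-5.54), and both lie far from the grey band of the other genes.

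The 15 genes with the largest rises among called genes without overlap were Tcf7l2, Ntng1, Prkcd, Cck, Rora, Tnnt1, Slc17a6, Gabbr2, Sparc, Kcnc2, Ccdc136, Adarb1, Zic1, Ptpn3 and Agt, of which Prkcd and Ptpn3 had picked the discs. Tcf7l2 (ENSMUSG00000024985, chromosome 19 from 55741797 to 55933659 of mm10 in the RefSeq annotation), a transcription factor of Wnt signalling that marks thalamic neurons, was at 11.9, 8.86, 6.63, 16.3 and 8.45 UMIs per 10000 in the thalamus and at 0.0701, 0.0426, 0.0573, 0.0664 and 0.0616 in the CP. Every thalamus value lay above every CP value, and the mean was 175 times that of the CP, a log2 difference of 4.22 ± 0.14 (SE, n = 5, adjusted p = 1.91e-16). The SE of a log2 difference, here and below, is the moderated one of limma, drawn toward a trend over all genes tested. It can be smaller or larger than the SE of the gene's own 5 differences. Ntng1, a membrane-anchored netrin of thalamocortical axons (chromosome 3 from 109780050 to 110149972), was at 9.55, 7.81, 7.67, 7.3 and 5.8 against 0.149, 0.0802, 0.104, 0.0873 and 0.0638, a log2 difference of 3.75 ± 0.12 (SE, n = 5, adjusted p = 8.95e-17). Rora, an orphan nuclear receptor needed by sensory relay neurons, was at 9.4, 7.95, 6.03, 7.3 and 8.4 against 0.319, 0.228, 0.24, 0.343 and 0.271, a log2 difference of 3.40 ± 0.12 (SE, n = 5, adjusted p = 4.46e-16). These 3 genes were raised in all 5 mice, and for Rora and Ntng1 the highest and lowest thalamus values lay within 1 log2 unit of each other.

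Among the 15 largest falls were those of Penk, Ppp1r1b, Tac1, Rgs9, Hpca, Tmem158, Nrgn, Arpp21, Gng7, Baiap2, Meis2, Ctxn1, Ngef and Sst, of which Ppp1r1b had picked the CP discs. Penk (ENSMUSG00000045573, chromosome 4 from 4133536 to 4138815 of mm10), the precursor of the enkephalins, was at 0, 0.0337, 0.0372, 0.124 and 0.050 in the thalamus and at 22, 30.9, 27.2, 22.3 and 23.4 in the CP, a log2 difference of -5.54 ± 0.13 (SE, n = 5, adjusted p = 2.29e-19). The CP mean was 514 times that of the thalamus, which rested on few UMIs. Arpp21, a cAMP-regulated RNA-binding protein, was at 1.84, 0.775, 0.931, 0.619 and 1.15 against 17.2, 14.4, 15.4, 16.7 and 13.4, a log2 difference of -3.39 ± 0.14 (SE, n = 5, adjusted p = 6.66e-15). Rgs9, which speeds the shut-off of dopamine and opioid receptor signalling, was at 0.0995, 0.101, 0, 0 and 0 against 5.85, 6.04, 5.75, 6.29 and 5.51, a log2 difference of -3.57 ± 0.12 (SE, n = 5, adjusted p = 1.23e-16). In each of these genes the lowest CP value exceeded the highest thalamus value by a wide margin.

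**Figure D2:**
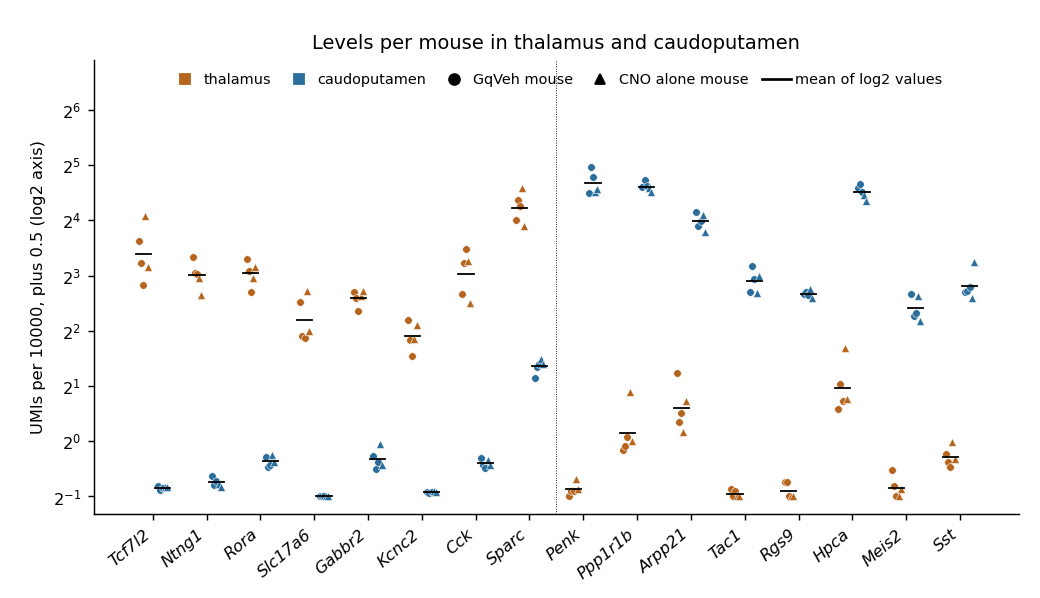
Level of 8 genes higher in the thalamus (left of the dotted line) and 8 genes lower (right), as UMIs per 10000 plus 0.5 on a log2 axis. Circles are GqVeh mice, triangles CNO alone mice, orange the thalamus, blue the caudoputamen, and black lines mark the mean of the log2 values, and in none of the 16 genes do the regions overlap.

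The genes used to pick discs are given as a description of that choice. Prkcd, a protein kinase C of first-order relay neurons, was at 8.01, 6.43, 11, 1.11 and 10.2 in the thalamus and at 0.0522 ± 0.0129 in the CP (SD, n = 5). Ptpn3, a tyrosine phosphatase, was at 2.64, 3.1, 2.23, 3.22 and 3.15 against 0.0307 ± 0.00549, and Synpo2, an actin-binding protein, at 2.74, 1.58, 1.79, 1.61 and 1.75 against 0.134 ± 0.0146. Ppp1r1b, which encodes DARPP-32, was at 0.398, 0.438, 0.559, 1.36 and 0.50 against 23.7, 25.9, 24.1, 23.6 and 22.4. Prkcd in C2W2 was thus at 1.11 where the other 4 mice had 6.43 to 11, while its Synpo2 lay within the range of the others and its Ptpn3 just above it.

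Of 14 listed transcription factors of the thalamus 9 passed the filter, 6 of them through the thalamus alone. Of the 3 that passed in both regions Rora and Foxp2 were called higher, and in all 8 of the 9 were called higher and none lower. Shox2, a homeodomain factor of relay neurons, was at 2.24, 2.16, 2.57, 1.86 and 1.35 against 0.00213, 0, 0, 0.00569 and 0.0022, a log2 difference of 2.32 ± 0.12 (SE, n = 5, adjusted p = 3.42e-13). Zic1, a zinc finger factor, was 3.69 against 0.139 on average (2.69), and Gbx2, which specifies thalamic neurons in development, 1.28 against 0.0113 (1.73). Lef1, a partner of beta-catenin like Tcf7l2, differed by 1.27, Prox1 by 0.94 and Foxp2 by 0.59. Lhx2 was the member that was not called (0.18, adjusted p = 0.226). Lhx9, Zic4, Zic5 and Irx2, among others, fell under the filter on low levels.

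Of 20 relay neuron markers 17 passed the filter, 14 of them through the thalamus alone, and those 17 were called higher. The 3 that passed in both regions were Adarb1, Pdp1 and Necab1. This list contains Prkcd, Ptpn3 and Synpo2, which picked the discs. Beyond them, Ramp3, a partner of calcitonin-family receptors, was at 3.08, 2.63, 4.06, 2.6 and 2.3 against 0.0559 ± 0.0173, a log2 difference of 2.61 ± 0.12 (SE, n = 5, adjusted p = 4.14e-14). Adarb1, an RNA-editing enzyme of glutamate receptor transcripts, was at 5.37, 5.19, 5.03, 6.93 and 5.8 against 0.435 ± 0.115, and Amotl1, a junction scaffold, at 4.58, 2.49, 2.72, 3.22 and 3.25 against 0.156 ± 0.0383. Both were above the CP in every mouse, with differences of 2.72 and 2.49. Rgs16, Plekhg1, Pdp1, Patj, Slitrk6 and Rab37 differed by 1.98, 2.28, 1.78, 1.47, 1.21 and 1.13. Necab1, the weakest (0.41, adjusted p = 0.035), was not called without mouse C2W2 (0.23, adjusted p = 0.155), without C1W7 (adjusted p = 0.182) or without 802 (adjusted p = 0.0755), nor under TMM (adjusted p = 0.0788).

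The thalamus columns were not alike in the genes that distinguish thalamic nuclei. Calb2, the calcium-binding protein calretinin, was at 1.94, 1.35, 0.819, 19.7 and 1.1, so that C2W2 was at 19.7 where no other mouse exceeded 1.94. Tnnt1, a troponin gene expressed in relay nuclei, was at 5.03, 7.71, 9.76, 1.61 and 4.4, lowest in C2W2. Nrgn, the calmodulin-binding protein neurogranin, was at 3.28, 2.49, 1.08, 18.1 and 4.05, and Resp18, a protein of neuroendocrine secretory granules, at 1.24, 1.14, 1.6, 6.56 and 1.55, both highest in C2W2. Without C2W2 the differences from the CP were 4.07 for Prkcd (3.56 with it), 1.74 for Calb2 (2.45), 3.64 for Tnnt1 (3.31), -4.06 for Nrgn (-3.47) and 0.99 for Resp18 (1.41). All 5 genes were called with and without this mouse. Pcp4, a calmodulin regulator, ranged from 10.4 in C2W2 and 17.3 in 802 to 57.3 in 785, across CP values of 37.8 to 58.4. Its call (-0.72, adjusted p = 0.0118) was lost without C2W2 (-0.44, adjusted p = 0.101) and without 802 (-0.60, adjusted p = 0.0856). Whether the discs of these mice lie in the same nuclei was not tested.

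**Figure D3:**
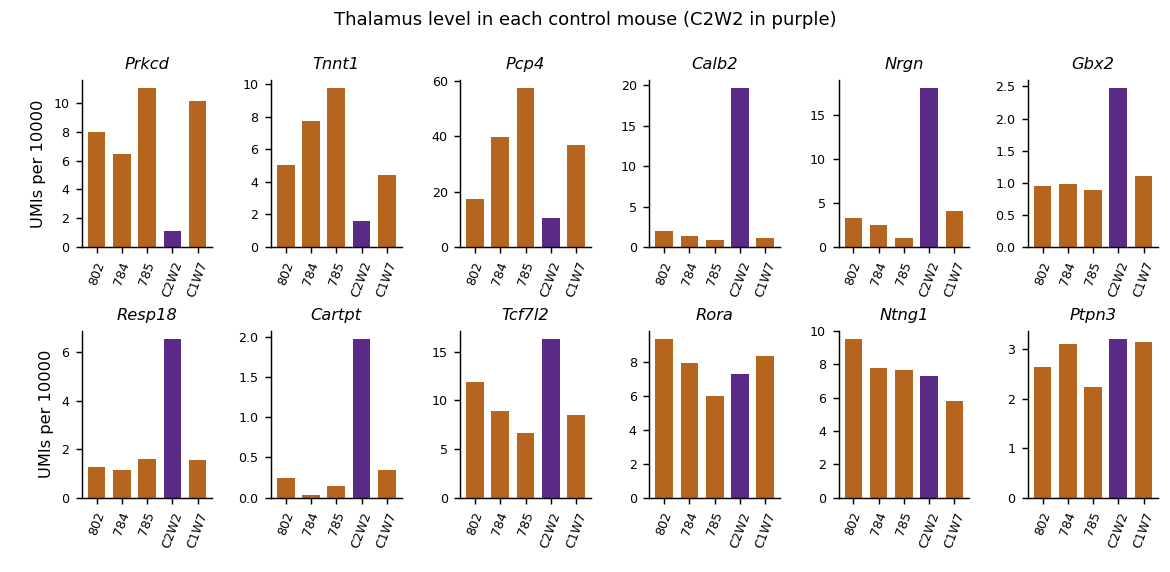
Thalamus level (UMIs per 10000) of 12 genes in each of the 5 control mice, 1 bar per mouse from 0. CNO alone mouse C2W2, in purple, is lowest in Prkcd, Tnnt1 and Pcp4, highest in Calb2, Nrgn, Gbx2, Resp18, Cartpt and Tcf7l2, and inside the range of the other mice, or just above it, in Rora, Ntng1 and Ptpn3.

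Of 16 listed transcription factors of the striatum 10 passed the filter, 9 of them through the CP alone, and the 10 were called lower in the thalamus. Foxp1 was the member that passed in both regions. Meis2, a homeodomain factor of striatal progenitors and neurons, was at 0.199, 0.0674, 0, 0 and 0.050 against 5.86, 4.33, 4.5, 5.67 and 4.0, a log2 difference of -3.25 ± 0.12 (SE, n = 5, adjusted p = 1.03e-15). Bcl11b, also called Ctip2, was at 0.101 against 3.13 (-2.55), Foxp1 at 0.53 against 4.89 (-2.36), Six3 at 0.0223 against 1.82 (-2.14) and Dlx6 at 0.0495 against 0.809 (-1.26). The retinoid receptor genes Rarb and Rxrg, whose products pair to bind DNA, differed by -1.51 and -2.43, and Crym, a thyroid hormone-binding protein of the striatum, by -2.39.

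Of 23 markers shared by both kinds of spiny projection neuron 21 passed the filter, 5 of them through the CP alone. The 16 that passed in both regions and those 5 were called lower in the thalamus, and the list holds Ppp1r1b, which picked the CP discs. Scn4b, a sodium channel subunit of these neurons, was at 0.448, 0.135, 0.298, 0.247 and 0.20 against 5.38, 4.31, 4.36, 6.04 and 4.39, a log2 difference of -2.82 ± 0.12 (SE, n = 5, adjusted p = 8.07e-15). Besides Arpp21, Lrrc10b was at 0.0824 against 4.29 (-3.04) and Syndig1l at 0.252 against 4.84 (-2.84). The smallest falls of the list were those of Strip2 (-0.80), Spock3 (-0.85), Gnal (-1.16) and Pcp4l1 (-1.33). The thalamus retained 2.48 UMIs per 10000 of Spock3, a proteoglycan, and 3.82 of Pcp4l1, against 4.74 and 9.03 in the CP.

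Receptors and peptides that tell the 2 pathways apart were at or near 0 in the thalamus. Drd1 had no UMI in any of the 5 thalamus columns and was at 2.77, 2.27, 2.27, 2.86 and 2.17 in the CP, at least 86.2-fold higher against the floor of 3 UMIs over the group (adjusted p = 1.62e-14). Adora2a likewise had none and was at 2.39, 1.77, 1.86, 2.65 and 1.36, at least 70.1-fold higher (adjusted p = 4.87e-13). Gpr6, an orphan receptor of indirect-pathway neurons, had none against 1.32, at least 46.1-fold. Drd2 was at 0.0995, 0.0337, 0, 0 and 0 against 2.14, 1.89, 1.87, 2.13 and 1.6, a log2 difference of -2.20 ± 0.11 (SE, n = 5, adjusted p = 2.13e-13). Of the direct-pathway list 3 of 4 tested genes were called lower, with Sfxn1, a mitochondrial serine carrier, the exception (-0.05, adjusted p = 0.742), and of the indirect-pathway list 4 of 4. The 7 called genes had passed the filter through the CP alone.

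Striatal interneurons were represented by 3 tested genes of 10. Sst (somatostatin) and Npy (neuropeptide Y), expressed together in 1 interneuron class, were lower, at 0.327 against 6.61 and 0.108 against 1.89, with differences of -3.09 and -1.96. Pvalb, the parvalbumin of fast-spiking cells, was higher in the thalamus, at 0.448, 0.741, 0.819, 0.495 and 1.35 against 0.287, 0.318, 0.365, 0.381 and 0.374, a log2 difference of 0.55 ± 0.13 (SE, n = 5, adjusted p = 0.0015). The thalamus values of Pvalb did not overlap those of the CP. The cholinergic genes Chat, Slc18a3 and Slc5a7 fell under the filter on low levels.

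Dopamine receptors of the CP act on cAMP through the adenylyl cyclase encoded by Adcy5 and the olfactory-type G protein alpha subunit encoded by Gnal. In the list of dopamine and cAMP signalling, 29 of 32 tested genes were called lower in the thalamus and 3 higher. Of the 23 that passed the filter in both regions 21 were called lower and 2 higher. The list holds Ppp1r1b and Prkcd, by which discs were picked. Adcy5 was at 0.697, 0.606, 0.633, 0.619 and 0.55 against 7.34, 6.05, 6.39, 7.82 and 5.52, a log2 difference of -2.66 ± 0.12 (SE, n = 5, adjusted p = 1.5e-14). Gng7, the gamma subunit that partners Gnal, was at 0.364 against 7.91 (-3.29), and the cAMP-degrading phosphodiesterases Pde10a, Pde1b and Pde2a differed by -2.75, -2.31 and -2.38. Rgs4 and Rgs2, regulators of G protein signalling, differed by -2.54 and -1.52, and the phosphatase inhibitors Arpp19 and Ppp1r1a by -2.79 and -1.90. Chrm1 (-1.56) and Cnr1 (-2.25), the M1 muscarinic and CB1 cannabinoid receptors, were also lower. The 3 higher members were Prkcd and, by small differences, the protein kinase A subunits Prkar1b (0.38) and Prkaca (0.32). Neither kinase subunit was called under TMM (0.26 and 0.21), without C2W2 (0.27 and 0.25) or without 802 (0.33 and 0.31), and Prkaca was also not called without 784 (0.33) or 785 (0.30).

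Other genes of cAMP signalling were higher in the thalamus. Adcy1, the calmodulin-stimulated adenylyl cyclase, was at 4.38, 2.63, 2.46, 2.6 and 2.8 against 0.633, 0.359, 0.403, 0.687 and 0.464, a log2 difference of 1.77 ± 0.12 (SE, n = 5, adjusted p = 4.56e-11), opposite to Adcy5. Gnas, the widely used stimulatory alpha subunit, was at 22.7, 26.9, 27.9, 24.5 and 22.5 against 6.43, 6.05, 5.81, 6.24 and 6.24, a log2 difference of 1.93 ± 0.14 (SE, n = 5, adjusted p = 8.52e-11), opposite to Gnal (-1.16). Neither gene overlapped between the regions.

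These are among 9 pairs of related genes, of 23 pairs with both members tested (32 listed), in which 1 member was called higher and the other lower in the thalamus. The pairs were a chosen list, and in each of the 9 the member listed first was the higher one. The count describes that list and is not a result about related genes in general. Over all genes tested 24.5% were called higher and 18.6% lower. Among calcium sensors, Ncald was higher (1.58) and Hpca lower (-3.55). The pair of Prkcd and Prkcb is among the 9, but its direction follows from the choice of discs by Prkcd. Other such pairs were the complexins Cplx1 (0.91) and Cplx2 (-2.28), the vesicle proteins Sv2b (0.65) and Sv2c (-0.86) and the factors Foxp2 (0.59) and Foxp1 (-2.36).

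Transmitter genes separated glutamate from GABA. Slc17a6, the vesicular glutamate transporter VGLUT2 (chromosome 7 from 51621830 to 51671126 of mm10), was at 5.22, 3.27, 3.17, 6.06 and 3.5 in the thalamus and at 0.00425, 0.00251, 0.00174, 0.00379 and 0 in the CP, a log2 difference of 3.20 ± 0.13 (SE, n = 5, adjusted p = 6.34e-15). Slc17a7 (VGLUT1) was higher too, at 1.89 against 0.24 (1.64), as was the glutamine transporter Slc38a1 (0.87). On the GABA side, the synthesizing enzymes Gad1 and Gad2 were at 0.277 against 5.0 (-2.82) and 0.244 against 2.98 (-2.25), and the vesicular transporter Slc32a1 at 0.0889 against 2.54 (-2.37). Uptake was represented by Slc6a11 (GAT3), mostly astrocytic, at 3.78, 2.36, 3.84, 1.86 and 2.7 against 0.249, 0.15, 0.214, 0.271 and 0.198, a log2 difference of 2.21 ± 0.13 (SE, n = 5, adjusted p = 3.7e-12).

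Receptor genes for both transmitters differed from subunit to subunit. Of 11 tested ionotropic glutamate subunits 4 were called higher and 4 lower, with a median of 0.06 that was negative under TMM, on the values as deposited and in 3 other settings. Each share was 36.4%, against 24.5% higher and 18.6% lower over all genes tested. The NMDA subunits Grin2c (1.05), Grin2d (0.95) and Grin2b (0.69) were higher while the obligatory subunit Grin1 was not called (-0.23, adjusted p = 0.133). Grin1 was called lower under TMM (-0.35, adjusted p = 0.0192), on the values as deposited (-0.34, adjusted p = 0.0282) and in edgeR (-0.38, adjusted p = 0.0309). The AMPA subunits Gria2 (-1.06) and Gria1 (-0.59) were lower and Gria4 higher (0.44), without a call once the CP was thinned to the depth of the thalamus (adjusted p = 0.1). Of 11 tested GABA receptor genes 5 were called higher and 1 lower (45.5% and 9.09%), and 2 of the 11 had passed the filter through the thalamus alone. Gabbr2, without which GABA-B receptors do not reach the membrane, was at 6.02, 5.52, 4.65, 5.69 and 6.05 against 0.334, 0.206, 0.271, 0.465 and 0.242, a log2 difference of 2.93 ± 0.12 (SE, n = 5, adjusted p = 6.02e-15), while its partner Gabbr1 was not called (0.28, adjusted p = 0.0784), except with the GqCNO mice added (0.30, adjusted p = 0.0121). Gabrd, of extrasynaptic GABA-A receptors, differed by -0.72. Gabra4, which often assembles with the delta subunit, was not called (0.20, adjusted p = 0.317), but was called higher without C2W2 (0.42, adjusted p = 0.00786).

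Some ion channel genes separated the regions as well. Cacna1g, the T-type calcium channel of relay neuron bursts, was at 2.09, 2.16, 1.56, 2.72 and 2.0 against 0.0574, 0.0238, 0.0469, 0.0664 and 0.0506, a log2 difference of 2.23 ± 0.12 (SE, n = 5, adjusted p = 3.42e-13). Its relative Cacna1i was lower (-0.47) and was not called without C1W7 (-0.39, adjusted p = 0.073) or without 802 (-0.38, adjusted p = 0.0565). The pacemaker channel Hcn2 (0.65) and the leak channel Kcnk3 (0.80) were higher. Of 21 tested potassium channel genes, inward rectifiers and auxiliary subunits included, 10 were called higher and 5 lower. The shares were 47.6% and 23.8%, against 24.5% and 18.6% of all genes tested. Of the 21, 6 had passed the filter through the thalamus alone and 4 through the CP alone. Of the 11 that passed in both regions 4 were called higher and 1 lower. Kcnc2, a fast delayed rectifier, was at 4.08, 3.06, 2.42, 3.09 and 3.8 against 0.0319, 0.0213, 0.0261, 0.0379 and 0.0264, a log2 difference of 2.82 ± 0.12 (SE, n = 5, adjusted p = 8.34e-15). Kcnc1 (1.88), Kcna2 (1.96), Kcnj3 (1.16) and Kcnd3 (1.06) were also higher by at least 1. The lower genes were Kcnip2 (-2.37), which tunes the A-type current, the inward rectifier Kcnj4 (-1.83), Kcnab1 (-1.48), Kcnh3 (-1.22) and Kcnq5 (-1.05). Among 8 sodium channel genes 3 were called higher, among them Scn1a (1.14) and Scn8a (0.79), and 2 lower, Scn4b (-2.82) and Scn3a (-0.55). These shares, 37.5% and 25%, are not far from the 24.5% and 18.6% of all genes tested.

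Presynaptic and axonal genes were mostly higher in the thalamus. Of 26 tested genes of vesicle release 15 were called higher and 5 lower, with a median of 0.54. The shares were 57.7% and 19.2%, against 24.5% and 18.6% of all genes tested, so the share called lower is near that of all genes. Of the 26, 1 had passed the filter through the thalamus alone and 2 through the CP alone. Of the 23 that passed in both regions 14 were called higher and 3 lower. Vamp1, the synaptobrevin of fast and long-range neurons, was at 2.59, 1.62, 2.42, 1.73 and 1.8 against 0.219, 0.214, 0.193, 0.23 and 0.176, a log2 difference of 1.82 ± 0.12 (SE, n = 5, adjusted p = 2.04e-11), while Vamp2 was not called (0.25, adjusted p = 0.16), except with the GqCNO mice added (adjusted p = 0.0472). Sncb, beta-synuclein, was at 9.85, 5.86, 5.88, 6.31 and 4.5 against 1.56, 1.63, 1.55, 1.67 and 1.63, without overlap (1.68). Syt1, the calcium sensor of release (1.39), Rab3c (1.58), Syp (1.13) and Snap25 (0.80) were higher, and Cplx2 (-2.28) and Synpr (-1.47) lower.

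Among 18 tested genes of neurofilaments and the axon cytoskeleton 14 were called higher and none lower, with a median of 0.87. The share called higher was 77.8%, against 24.5% of all genes tested. Of the 18, 1 had passed the filter through the thalamus alone, and of the 17 that passed in both regions 13 were called higher. Map1b, a microtubule protein, was at 17.2 against 4.35 (1.89), and the heavy neurofilament Nefh at 1.65 against 0.184 (1.64). Ina (1.39), Stmn1 (1.57) and Stmn2 (1.45) were also at least 1 higher. Nefm, Map2, Sptan1 and Ank3 were not called, at 0.22, 0.12, 0.28 and 0.18. Nefm was called higher without C2W2 (0.41, adjusted p = 0.0105) and in the GqVeh mice (0.62, adjusted p = 0.000941). Sptan1 was called higher without C2W2 (0.34, adjusted p = 0.046), without 802 (0.40, adjusted p = 0.0439) and with the CP thinned (0.46, adjusted p = 0.0216). Of 20 tested genes of guidance, adhesion and matrix 9 were called higher and 5 lower. The shares were 45% and 25%, against 24.5% and 18.6% of all genes tested. Of the 20, 4 had passed the filter through the thalamus alone and 2 through the CP alone. Spon1 (1.97), Cntn1 (1.15) and Hapln4 (1.12) were higher, while Reln (-1.23) and the axon guidance receptor Robo2 (-0.99) were lower.

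Calcium-binding proteins were split, with 5 of 17 tested called higher and 8 lower. The shares were 29.4% and 47.1%, against 24.5% and 18.6% of all genes tested. Vsnl1 (visinin-like 1) was at 6.32, 5.56, 6.0, 6.31 and 6.0 against 0.92, 0.693, 0.683, 1.06 and 0.845, a log2 difference of 2.29 ± 0.12 (SE, n = 5, adjusted p = 2.02e-13), and Ncs1 differed by 1.06. Hpca (hippocalcin) was at 0.995, 1.55, 1.15, 2.72 and 1.2 against 23.5, 24.8, 22.3, 21.6 and 19.8, a log2 difference of -3.55 ± 0.15 (SE, n = 5, adjusted p = 8.07e-15). Nrgn, with its range in the thalamus, differed by -3.47 (adjusted p = 2.93e-09). Calb1, the calbindin of both regions, was at 3.13, 4.14, 2.57, 4.82 and 2.45 against 3.36, 3.83, 3.37, 3.69 and 3.13, with values that overlapped (-0.05, adjusted p = 0.764). Camk2a was not called either (0.12, adjusted p = 0.509), and Camk2b (-0.68) and the kinase inhibitor Camk2n1 (-0.97) were lower.

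Neuropeptides and granins held some of the largest differences in both directions, with 6 of 16 tested genes called higher and 7 lower. The shares were 37.5% and 43.75%, against 24.5% and 18.6% of all genes tested. Of the 16, 4 had passed the filter through the CP alone and 1 through the thalamus alone. Of the other 11 there were 5 called higher and 3 lower. Cck, cholecystokinin, was at 5.82, 8.82, 10.7, 9.15 and 5.15 in the thalamus and at 0.308, 0.238, 0.214, 0.29 and 0.246 in the CP, a log2 difference of 3.43 ± 0.14 (SE, n = 5, adjusted p = 6.57e-15). Tac1 was at 0.0498, 0, 0.0372, 0 and 0 against 5.99, 8.54, 7.18, 5.96 and 7.47, a log2 difference of -3.85 ± 0.12 (SE, n = 5, adjusted p = 8.95e-17), and Sst at 0.348, 0.269, 0.223, 0.495 and 0.30 against 5.98, 6.06, 6.41, 5.55 and 9.04, a log2 difference of -3.09 ± 0.13 (SE, n = 5, adjusted p = 8.34e-15). Among granins, which fill dense-core vesicles, Chga was at 2.34, 1.68, 2.09, 2.6 and 1.7 against 0.982, 1.13, 0.995, 0.884 and 0.962 (0.78), and Scg2 (0.81) and Chgb (0.61) were higher. Pdyn (-1.99) and Npy (-1.96) were lower, and Vgf and the convertase Pcsk2 lower by less (-0.48 and -0.45). Cartpt was called higher (0.69, not called in the GqVeh mice alone, adjusted p = 0.185), with 1.98 in C2W2 and 0.0337 to 0.35 in the other 4 mice, and its difference without C2W2 was 0.32.

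Most promoters of this group that could be searched hold a letter pattern, among genes higher and genes lower in the thalamus. The half-site CGTCA of the cAMP response element, or its reverse complement TGACG, lies in the 250 bases before the start of 10 of the 14 peptide and granin genes with a promoter in the RefSeq table (71.4%), against 33.8% of the promoters of all genes tested and 19.8% of all promoters of the table. The full element TGACGTCA, which contains the half-site on both strands, is in 4 of the 14 (28.6%), against 3.51% of genes tested. Those 4 are Sst, lower in the thalamus, and Scg2, Chgb and Cartpt, higher. The half-site is absent from the promoters of Npy and Pdyn, lower in the thalamus, Resp18, higher, and Pcsk1n, not called. Penk and Vgf, both lower, have no promoter in the RefSeq table and were not searched. Printed here, 5′ to 3′ on the strand of the gene from RefSeq (GRCm38.p6), are 2 promoters of genes higher in the thalamus (Cck and Chga) and 2 of genes lower (Sst and Tac1), with every half-site on either strand in capitals: Cck on chr9:121495695-121495944 (- strand), Chga on chr12:102554691-102554940 (+ strand), Sst on chr16:23890845-23891094 (- strand) and Tac1 on chr6:7554811-7555060 (+ strand).
Cck: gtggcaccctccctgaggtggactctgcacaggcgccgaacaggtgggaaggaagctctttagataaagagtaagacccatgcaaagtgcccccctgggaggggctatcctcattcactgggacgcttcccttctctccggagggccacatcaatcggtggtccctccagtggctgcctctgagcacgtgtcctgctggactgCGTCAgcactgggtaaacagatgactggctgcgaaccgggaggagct
Chga: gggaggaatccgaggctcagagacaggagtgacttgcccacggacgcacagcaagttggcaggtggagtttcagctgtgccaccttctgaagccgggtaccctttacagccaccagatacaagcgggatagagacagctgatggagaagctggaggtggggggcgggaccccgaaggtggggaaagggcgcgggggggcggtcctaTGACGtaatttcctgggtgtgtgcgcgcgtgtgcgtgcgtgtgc
Sst: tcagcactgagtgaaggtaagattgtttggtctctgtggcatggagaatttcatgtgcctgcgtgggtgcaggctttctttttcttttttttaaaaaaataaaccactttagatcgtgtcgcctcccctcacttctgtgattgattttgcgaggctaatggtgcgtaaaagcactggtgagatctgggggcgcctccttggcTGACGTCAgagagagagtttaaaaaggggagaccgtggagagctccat
Tac1: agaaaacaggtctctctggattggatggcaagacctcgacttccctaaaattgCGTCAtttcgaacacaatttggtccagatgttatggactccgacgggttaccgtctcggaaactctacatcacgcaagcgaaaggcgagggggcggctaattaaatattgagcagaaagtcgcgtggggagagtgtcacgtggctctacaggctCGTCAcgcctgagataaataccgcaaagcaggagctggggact

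In the Sst promoter the full element begins 48 bases before the start, and in that of Cck the half-site begins 47 bases before it. Tac1 holds half-sites at 43 and 197 bases, although its level is lower in the thalamus like that of Sst. A match of letters is a description and not a site bound in these tissues. The core CTTTGAT of TCF and LEF factors on either strand was in 3.55% of promoters of the genes at least 1 higher in the thalamus, where Tcf7l2 and Lef1 were high, in 5.17% of those at least 1 lower and in 2.8% of those tested.

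Activity-regulated genes, switched on by synaptic input, were mostly lower in the thalamus, with 8 of 12 tested called lower and 2 higher. Of these, 6 had passed the filter through the CP alone and 1 through the thalamus alone, and of the other 5 there were 2 called lower and 1 higher. Egr1 was at 1.04, 0.37, 0.447, 1.11 and 0.30 against 2.83, 1.73, 2.1, 1.92 and 2.0, a log2 difference of -1.23 ± 0.14 (SE, n = 5, adjusted p = 1.18e-07), and Homer1, a postsynaptic scaffold, differed by -1.49, Junb by -1.29, Egr3 by -1.29 and Arc by -0.90. Jun, a partner of Fos proteins, was higher, at 1.14, 0.707, 0.447, 0.742 and 0.65 against 0.219, 0.143, 0.142, 0.148 and 0.114, a log2 difference of 0.90 ± 0.12 (SE, n = 5, adjusted p = 1.17e-06). Fos, Npas4 and Bdnf fell under the filter on low levels.

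Of 11 tested nuclear receptors 7 were called higher and 4 lower, and 7 of the 11 had passed the filter through 1 region alone. Besides Rora, Rorb (1.20), Nr2f1 (1.74) and Nr2f2 (1.15), which pattern forebrain areas, were higher, and so was the glucocorticoid receptor Nr3c1 (0.64).

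Astrocyte genes were mostly higher in the thalamus. Of 16 tested astrocyte markers 12 were called higher in the thalamus and 1 lower (median 0.65). The shares were 75% and 6.25%, against 24.5% and 18.6% of all genes tested. Of the 16, 2 (Gfap and Gjb6) had passed the filter through the thalamus alone. Of the 14 that passed in both regions 10 were called higher and 1 lower. The summed level of the markers was 44.8 to 63.5 UMIs per 10000 in the thalamus and 34.9 to 41.8 in the CP. Since discs high in Gfap or Aldh1l1 were left out, the level of astrocyte genes depends on that choice. Aqp4, the astrocyte water channel, was at 1.29 against 0.265 (1.20), Gja1 at 1.61 against 0.644 (0.86) and the glutamate transporters Slc1a2 and Slc1a3 were not called (0.21 and -0.12). Clu was the member that was lower (-0.54), without a call in the GqVeh mice alone (adjusted p = 0.0518).

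A list of astrocyte genes known to differ by brain region had 6 of 9 tested genes called higher and 2 lower, and 6 of the 9 had passed the filter through 1 region alone. Agt, angiotensinogen, was at 1.84, 3.91, 4.13, 3.83 and 1.85 against 0.0234, 0.0514, 0.0556, 0.0436 and 0.066, a log2 difference of 2.65 ± 0.15 (SE, n = 5, adjusted p = 6.89e-13). Sparc, a secreted matrix protein, was at 15.5, 20.0, 18.8, 23.6 and 14.4 against 1.72, 2.03, 2.14, 2.3 and 2.15, a log2 difference of 2.87 ± 0.13 (SE, n = 5, adjusted p = 2.8e-14), and Itih3 (1.54) and the glycine transporter Slc6a9 (1.03) were higher with them. Mfge8 was lower (-0.69), but with the CP thinned to the depth of the thalamus it was at -0.37 and not called (adjusted p = 0.116). Genes of energy metabolism and the sodium pump were called in both directions, 6 of 22 higher and 9 lower. The shares were 27.3% and 40.9%, against 24.5% and 18.6% of all genes tested. Atp1b2, a sodium pump beta subunit of astrocytes, was higher (1.46), while Ldha, the lactate dehydrogenase A subunit, was lower, at 1.04 against 3.39 (-1.35).

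Myelin genes gave 5 of 19 called higher and none lower (median 0.24, and -0.06 in the CNO alone mice), and their share of 26.3% called higher is near the 24.5% of all genes tested. Mbp, at 40.7, 31.2, 36.7, 23.8 and 29.8 against 28.4, 22.2, 22.7, 28.1 and 25.5, was not called (0.33, adjusted p = 0.111), but was called higher without C2W2 (0.47, adjusted p = 0.0431) and in the GqVeh mice (0.56, adjusted p = 0.00362). Ptgds, a prostaglandin synthase of oligodendrocytes and meninges, was at 13.8 against 4.96 (1.34). Of 9 tested microglia genes 5 were called lower and none higher (median -0.35), among them C1qa (-0.69) and C1qb (-0.63). The share called lower was 55.6%, against 18.6% of all genes tested. Of the 9, 2 (Tyrobp and Trem2) had passed the filter through the CP alone, and of the 7 that passed in both regions 4 were called lower. These counts are subject to the exclusion of discs high in Aif1 or P2ry12. Of 12 vessel genes 4 (33.3%) were called higher (median 0.26, and -0.08 in the CNO alone mice), against 24.5% of all genes tested. Of the 12, 3 had passed the filter through the thalamus alone. Of the 9 that passed in both regions 2 were called higher. Acta2 of smooth muscle, called higher, had passed through the thalamus alone and was at 3.23 in mouse 802 and at 0 to 0.50 in the others. Acta2 was not called without 802 (adjusted p = 0.428), without C1W7 (adjusted p = 0.133) or without 785 (adjusted p = 0.0523). None of 4 tested blood cell genes was called.

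Mitochondria-encoded genes are among the most abundant transcripts of both regions. Of 13 tested 1 was called, mt-Nd4l, at -0.38, and it was not called without 802 (-0.29, adjusted p = 0.16) or without 785 (-0.30, adjusted p = 0.125). The other 12 differed by -0.41 to 0.09. mt-Co1 was at 315, 371, 356, 334 and 620.2 in the thalamus and 368, 349.7, 396, 349.6 and 357 in the CP, with a wider spread in the thalamus.

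**Figure D4:**
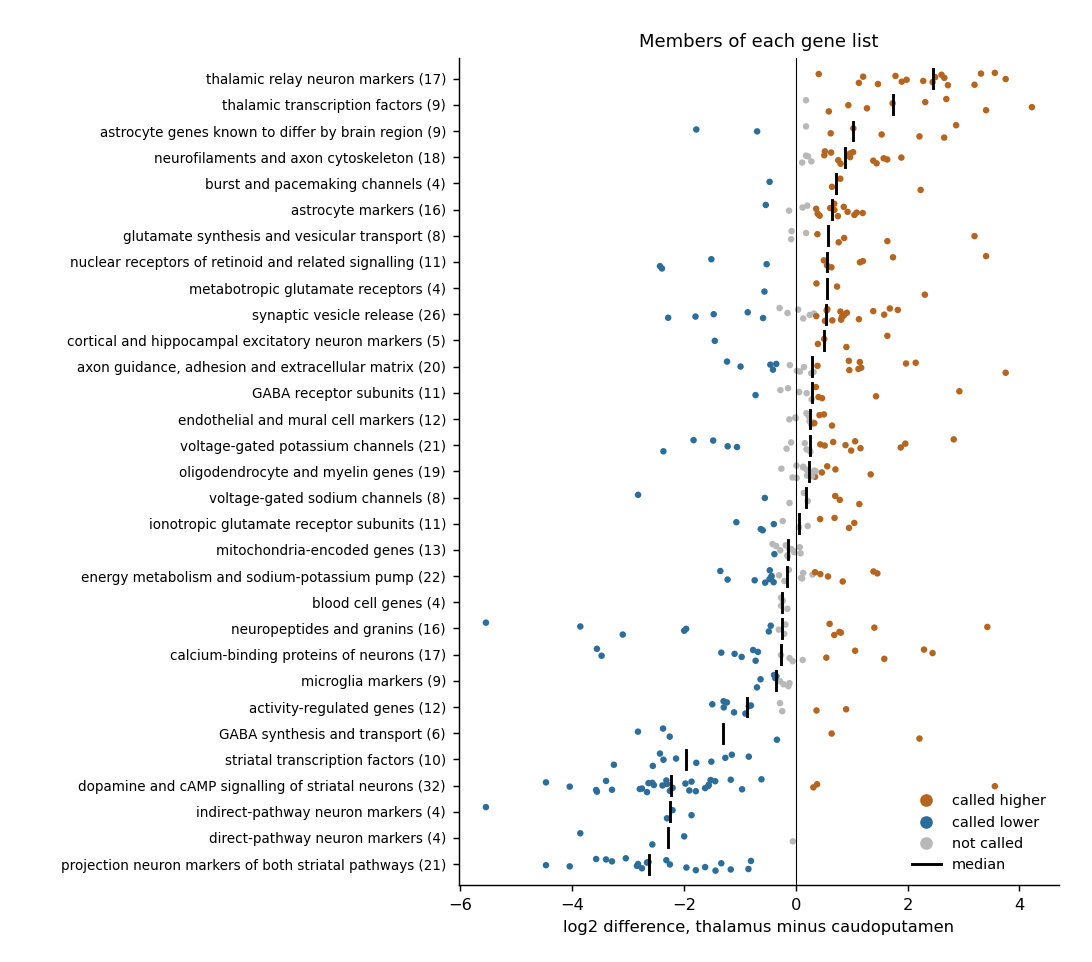
Log2 differences between thalamus and caudoputamen of the members of each list with at least 4 tested members, 1 point per gene, ordered by the list's median (black bar), with the number tested in parentheses. Orange points were called higher, blue points called lower and grey points not called, and the medians run from -2.63 for projection neuron markers to 2.45 for relay neuron markers.

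Genes of neighbouring regions were examined as well. Of 5 tested cortical and hippocampal genes 4 were called higher and 1 lower, with Cux2 (0.91) higher and Wipf3 (-1.45) lower. Of the 5, 3 had passed the filter through the thalamus alone, Cux2 among them, and Wipf3 through the CP alone. The directions of these follow from the filter, and Mef2c (0.51) was the member that passed in both regions. Neurod6 and Tbr1 were under the filter, at 0.0533 and 0 UMIs per 10000 in the thalamus. Of 10 listed dopamine neuron genes 1 was tested, Aldh1a1, and it was called higher, at 1.44 against 0.339 (1.13). Th, Slc6a3 and Slc18a2, under the filter, were at 0.0988, 0.0342 and 0.0175 in the thalamus. Also under the filter, Ret was at 0.282 in the thalamus against 0.0111 in the CP, and Slc10a4 at 0.00674 against 0.284. Ttr, the main transcript of the choroid plexus, was at 0, 0, 0, 0 and 0.050 in the thalamus and at 0.908, 0.0301, 0.0504, 2.64 and 0.066 in the CP, where the mice of array pair 1 (802 and C2W2) were high. Its difference was -2.07 in array pair 1 and -0.09 in array pair 2 (784, 785 and C1W7), and the difference between the pairs was itself called (adjusted p = 0.00051). It was the only gene of 6403 for which that test was called (0.0156%). With a constant of 0.1 no gene was called for it, and with a constant of 1 there were 3 (Ttr and, named here after their values were seen, Tmem130 and mt-Atp8). The count was 12 without C2W2, 252 without 802, 0 without C1W7 and 2 without 784 or without 785. Without 802 or C2W2 a single mouse stands for array pair 1 and is taken to vary like the others. Without C2W2 the difference of Ttr between the regions was -0.44, against -0.88 with it.

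Differences within an array bear on the confounding of region and array, since they lie within 1 library. The thalamus differed from the ventral tegmental area (VTA) of the same midbrain arrays at 1642 of 6403 genes (25.6%), and the CP from the lateral septal complex of the same striatal arrays at 2667 (41.7%) and from white matter at 3375 (52.7%). Tcf7l2 was 4.04 higher in the thalamus than in the VTA (adjusted p = 1.19e-09), Rora 3.55 and Ntng1 3.30, close in size to their differences from the CP. Penk was 4.05 higher in the CP than in the septal complex and 3.63 higher than in white matter, and Drd1 2.27 and 2.13. For these genes the within-array differences have the direction of the difference between the arrays.

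For other genes the differences within the arrays were smaller. Sparc was at 18.5 in the thalamus, 17.6 in the VTA and 26.1 in the compact part of the substantia nigra (SNc, 3 to 7 discs per mouse), against 2.07, 3.62 and 3.72 in the CP, the septal complex and white matter. It was not called between thalamus and VTA (0.06, adjusted p = 0.823) and was called lower in the CP than in the septal complex (-0.66, adjusted p = 9.24e-05) and than in white matter (-0.62, adjusted p = 0.000715). Agt was at 3.11, 3.2 and 3.77 in the midbrain sections and at 0.048, 0.13 and 0.272 in the striatal sections, with a call within the arrays between CP and white matter (-0.43, adjusted p = 0.0019). Sst was at 0.327, 0.57 and 0.792 against 6.61, 6.95 and 7.33. By these means, every region of the one section type was on the same side of every region of the other for these 3 genes, and a difference between regions and one between arrays cannot be told apart for them. Cck was as high in the VTA (7.54) as in the thalamus (7.93) and was also at 3.62 in white matter. Gnas was at 35.1 in the septal complex and 15.3 in white matter, against 6.15 in the CP, and Vsnl1 at 10.7 and 2.56 against 0.84. For Gnas and Vsnl1 the CP was the low region of its own array.

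**Figure D5:**
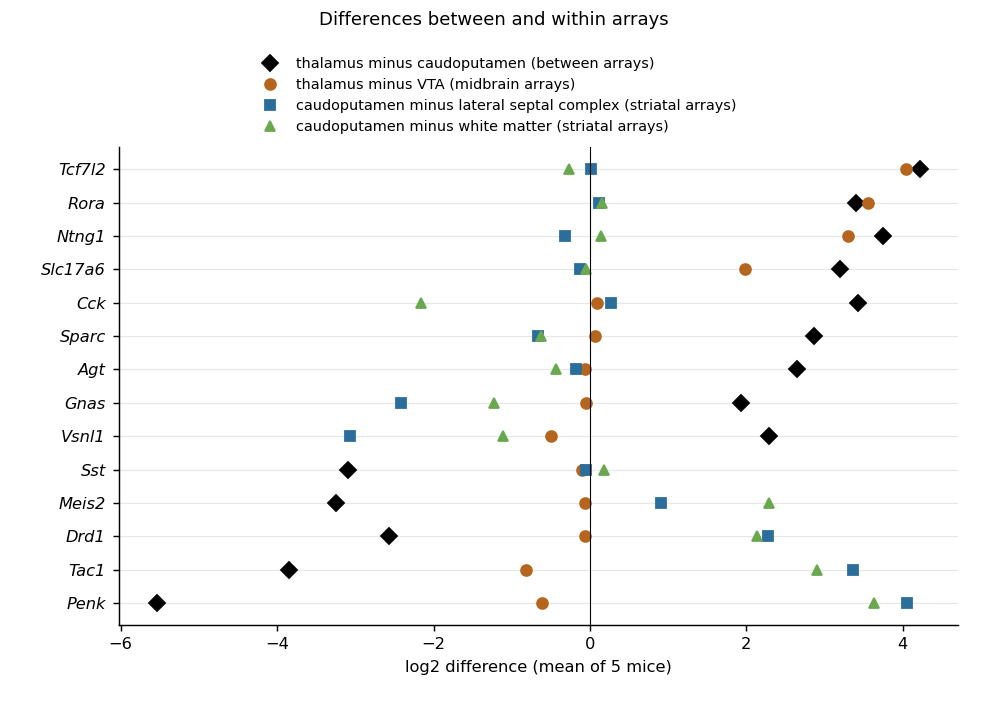
Log2 differences (mean of 5 mice) of 14 genes between thalamus and caudoputamen (black diamonds, between arrays), thalamus and VTA (orange circles, midbrain arrays), caudoputamen and lateral septal complex (blue squares, striatal arrays) and caudoputamen and white matter (green triangles, striatal arrays). Tcf7l2, Rora and Ntng1 have orange circles beside the diamonds, Penk, Tac1 and Drd1 have blue squares and green triangles far to the right, and Sparc, Agt and Sst have all within-array points within 1 of 0.

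The regional differences were then compared between the control groups. No gene of 6403 had a difference between thalamus and CP that depended on GqVeh against CNO alone at an adjusted p under 0.05 (0%). The smallest adjusted p was 0.304. At an unadjusted p under 0.05 the signed difference, thalamus minus CP, was higher in GqVeh mice for 320 genes and lower for 173. The sign does not tell whether the regions lay further apart. Without C1W7, when C2W2 alone stands for the CNO alone group, 97 genes were called, and without 802 there was 1. With 3 and 2 mice the count of 0 does not show that the groups are alike. Tcf7l2 differed by 4.08 in GqVeh and 4.44 in CNO alone mice, Ntng1 by 3.85 and 3.61 and Penk by -5.69 and -5.32. In the 2 GqCNO mice with a thalamus column, 804 and 781, which carried hM3Dq and drank CNO for 1 week, no gene's difference was called against that of the 5 controls (0%), with 117 higher and 133 lower in GqCNO mice at an unadjusted p under 0.05 and a smallest adjusted p of 0.996. In these mice Tcf7l2 was at 7.33 and 5.91 in the thalamus, against 6.63 to 16.3 in the controls, and Penk at 32.1 and 25.8 in the CP, against 22 to 30.9 in the controls.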

How the data were processed

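Visium region averages of midbrain and striatal sections were used. The authors aligned reads with Space Ranger to mm10, chose discs in Loupe Browser and deposited, per array, each mouse's signal averaged over the discs of a region after median normalization. The version of Space Ranger is not given in the sources used here. Low deposited values were whole multiples of 1 step (within 0.05 steps), which returned UMI totals. Columns were rescaled to 10000, a gene missing from an array set to 0, and log2 taken with 0.5 added. Differences understate the change of low genes. Genes with a mean of at least 0.25 were tested with limma 3.58.1 (R 4.3.3) on the difference per mouse, with Benjamini-Hochberg adjustment, since both regions come from 1 animal (correlation of paired deviations 0.0451 to 0.367, highest with the own mouse in 1 of 5). The smallest exact sign-flip p for 5 mice is 0.0625. edgeR 4.0.16 and DESeq2 1.42.0 on recovered UMIs, and other scalings, constants, filters and mice, were alternatives. The test was checked on simulated data. Members and the 37 gene lists were chosen with earlier results of these data known. Genes named are the 15 largest rises and falls without overlap, up to 6 of each list by p, opposed pairs, disc-choosing genes and, in a described list, further members. Some genes of the lists are not reported here. Coordinates and promoters are RefSeq's.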

Additional observations from a re-analysis of the deposited data

Results flagged for a closer look

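In 19 of the 190 genes named above, 1 mouse's log2 difference between thalamus and CP lay far from those of the other 4 by Dixon's gap test, and chance flags about 1 in 20 groups. CNO alone mouse C2W2, the thalamus column with 8 discs, was the outlying mouse in 13 of them. It was high or low in the relay, peptide and transmitter genes Cacna1i (0.34, others -0.82 to -0.51), Calb2 (5.26, others 1.29 to 2.27), Gbx2 (2.53, others 1.43 to 1.66), Lef1 (0.51, others 1.32 to 1.64), Nr2f2 (1.36, others 1.06 to 1.13), Pdp1 (0.99, others 1.90 to 2.06), Ppp1r1b (-3.70, others -4.82 to -4.52), Prkcd (1.53, others 3.66 to 4.35), Resp18 (3.09, others 0.80 to 1.20), Rgs2 (-0.48, others -2.07 to -1.61), Scg2 (1.79, others 0.34 to 0.75), Slc17a7 (0.37, others 1.85 to 2.04) and Spock3 (-1.48, others -0.82 to -0.62). Slc17a7 was at 0.742 UMIs per 10000 in its thalamus against 1.79 to 2.84 in the other 4. Mouse C1W7 was outlying in Cnr1 (-2.77, others -2.19 to -2.02), Gad1 (-2.47, others -3.00 to -2.86), Hapln4 (1.42, others 1.01 to 1.10) and Kcnh3 (-1.05, others -1.28 to -1.24) and mouse 802 in Gfap (2.33, others 0.60 to 0.97) and Synpo2 (2.31, others 1.71 to 1.88). Gfap, Prkcd, Ppp1r1b and Synpo2 are genes by which discs were chosen.

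The difference of Ttr between thalamus and CP depended on the array pair, by 1.98 (pair 2 minus pair 1, adjusted p = 0.00051 in limma). Nefm, the medium neurofilament, was higher in the thalamus of every GqVeh mouse and lower in that of both CNO alone mice, with a gap of 1.01 between the groups' means, and Sfxn1 was lower in every GqVeh mouse and higher in both CNO alone mice, with a gap of -0.21. In the test of the difference by treatment these were not called (adjusted p = 0.421 and 0.86).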

How the results depend on the processing

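Of the 6403 genes, 2758 were called with the pairing by mouse as a block and 2463 without the replicate block, of which 2421 were shared. Named genes not called without the block were Acta2 (0.189), Cartpt (0.0683), Necab1 (0.181), Pcp4 (0.116), Prkaca (0.0741), Prkar1b (0.128), Tmem130 (0.0788), Ttr (0.0717) and mt-Nd4l (0.0818), with the adjusted p in parentheses. Leaving out 1 mouse gave 2287 to 2927 called, 1290 to 1689 higher, 967 to 1238 lower, and, by at least 1, 221 to 245 higher and 226 to 234 lower. A mean of at least 1, which leaves 1797 genes, gave 1062 (534 higher and 528 lower, 134 and 136 by at least 1), the CNO alone mice 1307 (689 and 618), and no filter 3495 of 19950 genes, 2168 of them lower. The count at a difference of at least 1 depended on the constant, with 564 higher and 462 lower for 0.1 and 119 and 128 for 1, and edgeR gave 689 and 613 and DESeq2 675 and 631. The share of calls that were higher was 56.9% in the main setting, 45.1% under TMM and 46.3% as deposited, where the median of all genes moved from 0.04 to -0.03 and -0.03. The other settings (genes in all files, thinning, array pair or treatment as covariate, GqVeh mice, GqCNO mice added) gave 2190 to 3222. The dependence on array pair was called for 1 gene and, in alternatives chosen after seeing the data, for 0 with a constant of 0.1 or a mean of at least 1, 3 with a constant of 1, and 0 to 252 with 1 mouse left out. That on treatment was called for 0 to 97 genes with 1 mouse left out, and that on GqCNO for 0 in every setting run.

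Of 3928 combinations of a named gene and a setting, 3799 kept the direction and the side of the threshold, 94 lost the call, 16 gained one and 19 changed sign. All sign changes were in genes that were not called: in the CNO alone mice for Calb1 (0.0233), Gabra4 (-0.0621), Mbp (-0.00789), Nefm (-0.38) and Sfxn1 (0.0754), under TMM for Camk2a (-0.000696) and mt-Co1 (-0.0504), in the GqVeh mice for Camk2a (-0.0254), Map2 (-0.11) and mt-Co1 (-0.0984), with the CP thinned to the depth of the thalamus for Sfxn1 (0.0995), on the values as deposited for mt-Co1 (-0.0379), in edgeR for mt-Co1 (-0.0419), in DESeq2 for mt-Co1 (-0.0402), and with 1 mouse left out for Calb1 (-0.15 to 0.0147), mt-Atp8 (-0.34 to 0.11) and mt-Co1 (-0.0903 to 0.16). The causes were not tested. The depth of the thalamus limits low genes, since 1 UMI is worth 0.124 per 10000 in C2W2.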
